A study of Mus musculus with 12 samples.

Results

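A group of 9 genes that mark adipose progenitors and stromal cells (Pdgfra, Pdgfrb, Dpp4, Ly6a, Cd34, Pi16, Zfp423, Fbn1 and Acta2) was followed in inguinal white adipose tissue (iWAT). They were chosen by name from 14159 listed genes, and all 9 were listed and tested. PolyA RNA from the whole tissue came from Atf4WT mice, which carry floxed Atf4 without Cre, and from Atf4AKO littermates, in which the same alleles are recombined by Adipoq-Cre. Mice of each genotype stayed at room temperature (RT, 22 °C) or were exposed to 5 °C for 24 h, with 3 biological replicates numbered 0, 1 and 2 in each of the 4 groups. All mice were on a C57BL/6 background, and their age was not in the labels of these libraries. Adipoq-Cre is active in adipocytes, so progenitors and other stromal cells that do not express adiponectin keep their Atf4 alleles in both genotypes.

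White adipose tissue holds, beside its adipocytes, a stromal compartment of fibroblast-like progenitors, vascular mural cells, endothelium and leukocytes. Progenitors in the fibrous septa around the fat lobules carry DPP4 and PI16 and give rise to committed preadipocytes within the lobules, and both kinds carry PDGFRα, SCA-1 (Ly6a) and CD34. Beige adipocytes, which appear in iWAT in the cold, can form from such progenitors or from white adipocytes that take up the thermogenic programme. In RNA of whole tissue, fewer cells of a type and less RNA per cell cannot be told apart, and several of these markers are shared: endothelium expresses Ly6a and Cd34, and T cells express Dpp4 and Ly6a.

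Promoter windows of 7 of the 9 genes, taken by symbol from RefSeq (GRCm38.p6), were searched. Each window held 300 bases, 250 before and 50 after an annotated start. Windows of Ly6a and Pdgfrb were not searched, so the member counts below say nothing about these genes. ATF4 binds, with C/EBP partners, elements whose core is TGATGNAA, and this core stood on either strand in 3.97% of 32851 mouse promoter windows. Among the 8 windows of these 7 genes, 1 held it, at Pi16, 122 to 115 bases before the start used for that window and on the opposite strand. This whole window lies within the annotated span of Pi16 (chr17:29317680-29330593, plus strand), so the core is downstream of the first base of that span. Pi16 is shown because its window holds this core, in capitals, and because it spanned the widest range of levels. Zfp423 is shown because its cold-exposed libraries all lay below its RT libraries. GC boxes (GGGCGG, either strand) are in capitals there, and 35.7% of all windows hold this motif. The searches describe letters in these windows and no binding was measured.
Pi16 (chr17:29318632-29318931, plus strand): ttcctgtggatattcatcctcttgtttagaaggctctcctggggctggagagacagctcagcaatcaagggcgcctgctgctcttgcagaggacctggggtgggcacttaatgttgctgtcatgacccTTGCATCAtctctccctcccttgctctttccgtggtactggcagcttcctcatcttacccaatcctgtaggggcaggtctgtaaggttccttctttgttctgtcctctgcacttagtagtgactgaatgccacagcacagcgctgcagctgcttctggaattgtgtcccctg
Zfp423 (chr8:87959546-87959845, minus strand): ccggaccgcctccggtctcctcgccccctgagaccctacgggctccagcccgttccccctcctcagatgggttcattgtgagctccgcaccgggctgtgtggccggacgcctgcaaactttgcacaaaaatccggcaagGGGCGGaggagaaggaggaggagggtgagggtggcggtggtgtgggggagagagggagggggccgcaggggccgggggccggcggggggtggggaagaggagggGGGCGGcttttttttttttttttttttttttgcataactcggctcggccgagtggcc

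The libraries held 25719476 to 29105147 reads on the listed genes, and values are normalized counts, the reads of a gene divided by the size factor of its library. Atf4 itself fell in Atf4AKO iWAT, from 4815 ± 791 to 1568 ± 87.9 normalized counts (SD, n = 3) at RT and from 6970.1 ± 1054 to 1182 ± 395 after cold exposure. Ucp1, the uncoupling protein of thermogenic adipocytes, rose from 443 ± 241 to 81029 ± 11913 in Atf4WT with cold exposure. Adipocyte markers were high in every library. B cell and T cell markers (15 genes, mean log2 level) were at 7.53 to 9.89 in cold-exposed Atf4WT iWAT and at 3.89 to 5.49 in cold-exposed Atf4AKO iWAT, with 7.47 in Atf4WT RT replicate 2, and skeletal muscle markers stood out in that library and in Atf4WT cold replicate 0. They also stood out, less far, in Atf4AKO cold replicate 1, with a summed level of 3063 normalized counts against 72.3 and 78.4 in the other 2 libraries of its group. Replicate 1 of each cold-exposed group stood apart for stromal and macrophage genes, and the cold responses that changed are also given without these 2 libraries. A gene was called a DEG past a 1.5-fold change when its limma p, before adjustment, was under 0.05, the rule by which the study counted DEGs, and the Benjamini-Hochberg adjusted p over the 13404 tested genes is given beside it.

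Compared per kb of exon, Ly6a (a GPI-anchored surface protein, SCA-1) was the most abundant of the 9 genes, with a level of 5335 ± 659 normalized counts per kb (SD, n = 3) in Atf4WT iWAT at RT. Pi16, which encodes a secreted peptidase inhibitor of septal progenitors, followed with 1628 ± 549 per kb, and its 3 libraries overlapped with neither neighbour in the order. Cd34, a sialomucin of progenitors and endothelium, stood at 693 ± 109 per kb, Acta2 at 572 ± 127 and Fbn1 at 536 ± 265. Pdgfrb (322 ± 67.3 per kb), Zfp423 (249 ± 36.7), Dpp4 (219 ± 79.0) and Pdgfra (196 ± 9.69) closed the order. From Cd34 down, each gene overlapped with the next one in its 3 libraries. The order of these neighbours was not tested. Ly6a was first in each of the 4 groups, while Acta2 moved from the fourth place to the second in cold-exposed Atf4AKO iWAT, where its libraries overlapped with those of Pi16. Exon lengths are unions over the annotated transcripts of a gene, so the level of a gene with long rare isoforms is understated.

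**Figure D1:**
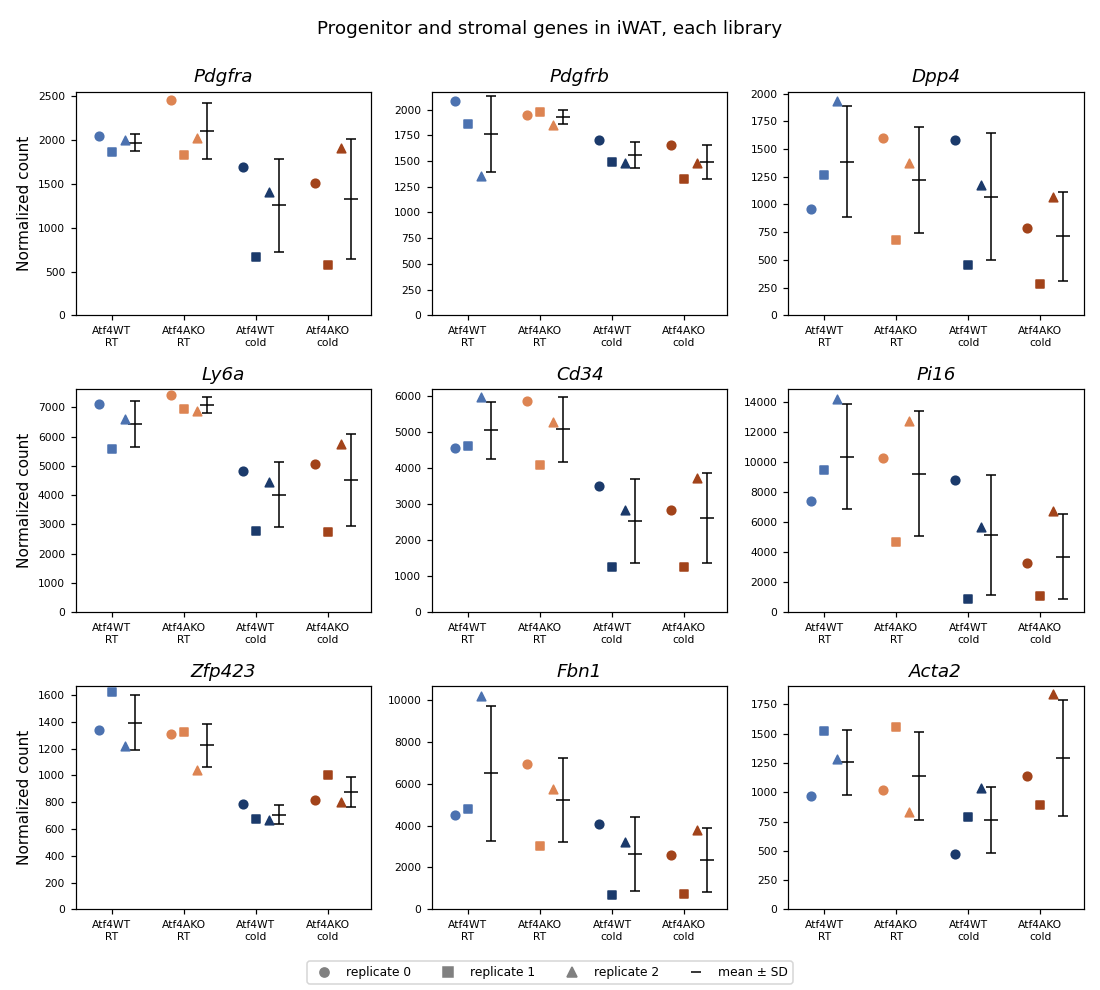
Normalized counts (y axis, linear, from 0) of the 9 genes in the 12 iWAT libraries, by group on the x axis, with marker shapes for replicates 0, 1 and 2 and bars for the mean ± SD (n = 3). Replicate 1 of both cold-exposed groups (squares) lies far below the other libraries for Pdgfra, Dpp4, Ly6a, Cd34, Pi16 and Fbn1, and not for Zfp423, whose cold-exposed libraries all lie below its RT libraries.

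Cold exposure of Atf4WT iWAT lowered 4 of the 9 genes: Zfp423, Cd34, Ly6a and Acta2 passed the DEG threshold, and all 9 log2 fold changes were below 0, with a median of -0.76 beside 0.00 over all tested genes. The background of the same call was 21.2% of the tested genes in either direction, and 10.3% were called lower. In 5 of 9 genes the cold-exposed and RT libraries did not overlap, against 46.8% of all tested genes, so the share without overlap was near the background. At an adjusted p under 0.05 only Zfp423 was called, against 31.9% of all tested genes. In Atf4AKO iWAT, 2 of the 9 genes, Cd34 and Ly6a, passed the DEG threshold, both lower, beside a background of 17.2% in either direction and 8.92% lower. The groups did not overlap for 4 of 9 genes there (background 41.7%), and Zfp423 alone had an adjusted p under 0.05 (background 25.9%). The median log2 fold change of the 9 genes was -0.82 in Atf4AKO, beside -0.03 over all tested genes. Averaged over both genotypes, 6 of the 9 genes (Pdgfra, Ly6a, Cd34, Pi16, Zfp423 and Fbn1) were called, all lower, against 19.7% of all tested genes in either direction and 10.6% lower. At an adjusted p under 0.05, 6 of 9 genes were called in this average (Pdgfra, Pdgfrb, Ly6a, Cd34, Zfp423 and Fbn1), beside 44.8% of all tested genes. The averaged cold response compares 6 libraries with 6. Without both cold replicates 1, 3 of the 9 genes (Cd34, Zfp423 and Fbn1) were called in it, 2 in Atf4WT (Cd34 and Zfp423) and 2 in Atf4AKO (the same genes, where Ly6a and Cd34 were called with all libraries).

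**Figure D2:**
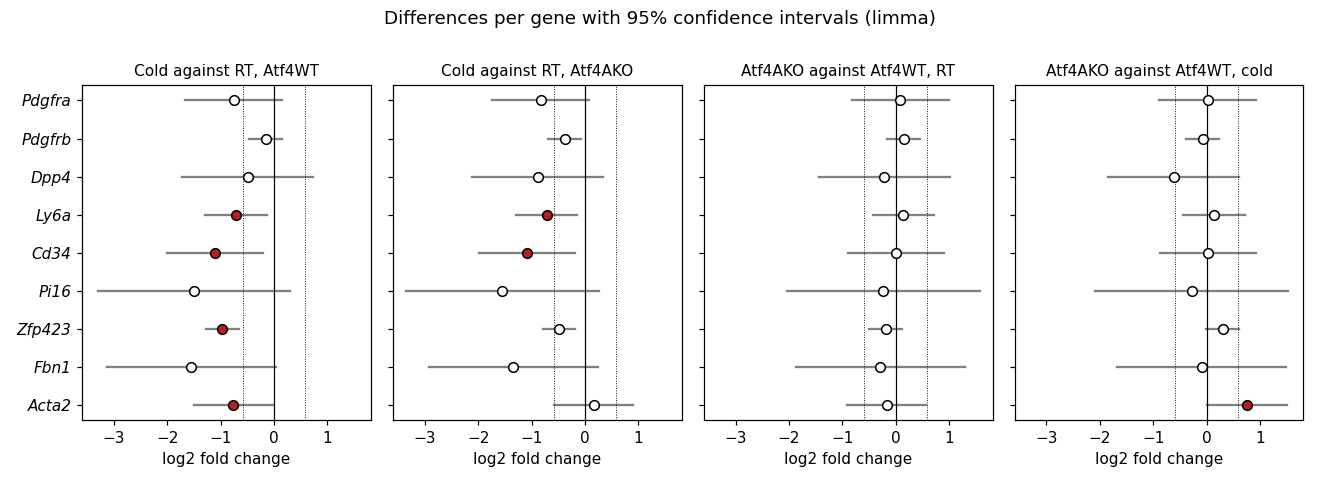
Log2 fold changes (x axis) of the 9 genes (y axis) in the 4 comparisons, with 95% confidence intervals from limma as horizontal lines, filled points for genes that passed the DEG threshold and dotted lines at a 1.5-fold change. Most points of both cold comparisons lie left of 0, and in the comparisons of the genotypes the points scatter around 0, with Acta2 after cold exposure as the filled one.

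Pdgfra encodes the PDGF receptor that marks adipose fibroblasts and progenitors. Pdgfra (NM_011058, mm10 chr5:75152292-75198215, plus strand) read 2049.7, 1861 and 1996 normalized counts in the 3 Atf4WT libraries at RT and 2458, 1828 and 2026 in the 3 Atf4AKO libraries. After cold exposure, Pdgfra read 1689.8, 666 and 1404 in Atf4WT and 1507, 571 and 1908 in Atf4AKO iWAT. In Atf4WT the cold-exposed libraries lay below the RT libraries, while Atf4AKO cold replicate 2 reached into the range of its RT group. The log2 fold change was -0.76 (SE 0.41, limma adjusted p = 0.185) in Atf4WT and -0.82 (SE 0.41, adjusted p = 0.166) in Atf4AKO, so neither passed the test. Over both genotypes Pdgfra fell by 0.79 on the log2 scale (SE 0.29, limma adjusted p = 0.0465). Without both cold replicates 1 this value was -0.33 (limma adjusted p = 0.0351), under the 1.5-fold limit, and the call was also lost without Atf4AKO cold replicate 1 alone and with the lymphocyte score as a covariate.

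Pdgfrb encodes the receptor of mural cells, which is also found on a share of progenitors. Pdgfrb (NM_001146268) read 2078, 1856 and 1358 normalized counts in the 3 Atf4WT libraries at RT and 1951, 1977 and 1849 in the 3 Atf4AKO libraries. After cold exposure, Pdgfrb read 1705, 1492 and 1484 in Atf4WT and 1655, 1323 and 1481 in Atf4AKO iWAT. Its libraries stayed within a 1.57-fold range over all 12, the narrowest of the 9 genes, and the 2 low cold libraries were at 93.6% and 84.4% of the mean of the other libraries of their group. The log2 fold change with cold was -0.16 (SE 0.14, limma adjusted p = 0.421) in Atf4WT and -0.38 (SE 0.14, adjusted p = 0.0701) in Atf4AKO, where the groups did not overlap but the change stayed under 1.5-fold. Of the genes for PDGF ligands and the receptor-like protein PDGFRL, 2 of 5 were called over both genotypes, both lower, with a median log2 fold change of -0.53. The background over all tested genes was 19.7% called in either direction and 10.6% called lower. Pdgfd, whose product signals through PDGFRβ, fell by 0.92 on the log2 scale (limma adjusted p = 0.000339), from 597 ± 67.8 to 286 ± 38.9 normalized counts (SD, n = 3) in Atf4WT and from 554 ± 169.9 to 314 ± 26.3 in Atf4AKO. Pdgfb, a ligand made by endothelium and named after its value was seen, had a log2 fold change of 0.16 (limma adjusted p = 0.426).

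Dpp4 encodes dipeptidyl peptidase 4, the surface marker of septal progenitors. Dpp4 (NM_010074, mm10 chr2:62330073-62412231, minus strand) read 957, 1266 and 1934 normalized counts in the 3 Atf4WT libraries at RT and 1599, 682 and 1370.2 in the 3 Atf4AKO libraries. After cold exposure, Dpp4 read 1579.9, 454 and 1179 in Atf4WT and 786, 281 and 1068 in Atf4AKO iWAT. Libraries of the RT and cold-exposed groups overlapped in both genotypes, since the RT libraries alone spanned 2.02-fold in Atf4WT and 2.34-fold in Atf4AKO. For Dpp4, the log2 fold change was -0.49 (95% confidence interval -1.72 to 0.74, limma adjusted p = 0.532) in Atf4WT and -0.89 (-2.11 to 0.34, adjusted p = 0.265) in Atf4AKO. Without both cold replicates 1 the Atf4WT value was 0.04, so its direction rested on 1 library. An antisense gene, Gm13561, overlaps 55161 bases of the Dpp4 gene span, introns included, and is not among the listed genes. The exons of Dpp4 cover 6319 bases, and the overlap with exons was not measured. Cd34, Fbn1, Pdgfra and Pi16 also have a gene on the opposite strand. The library kit was strand-specific, and the strand setting of the counting was not given.

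Ly6a fell in both genotypes. Ly6a (NM_001271416, mm10 chr15:74994877-74998031, minus strand) read 7119, 5561 and 6605 normalized counts in the 3 Atf4WT libraries at RT and 7400.2, 6948 and 6882 in the 3 Atf4AKO libraries. After cold exposure, Ly6a read 4840.4, 2759 and 4440.2 in Atf4WT and 5046, 2743 and 5746 in Atf4AKO iWAT. Every cold-exposed library lay below every RT library of its genotype, and the lowest of each group was replicate 1. The log2 fold change was -0.71 (SE 0.26, limma adjusted p = 0.0584) in Atf4WT and -0.72 (SE 0.26, adjusted p = 0.0655) in Atf4AKO, and over both genotypes -0.72 (adjusted p = 0.00907). Without both cold replicates 1 the value over both genotypes was -0.43 (limma adjusted p = 0.00344), which is under the 1.5-fold limit. In Atf4WT the call was also lost with the lymphocyte score as a covariate and without RT replicate 0 or cold replicate 1, and in Atf4AKO without cold replicate 1. Ly6a belongs to a family of similar genes on chromosome 15, and reads shared with a relative would not be counted as unique.

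Cd34 fell in both genotypes as well. Cd34 (NM_001111059, mm10 chr1:194938819-194961279, plus strand) read 4563, 4628 and 5971 normalized counts in the 3 Atf4WT libraries at RT and 5864, 4107 and 5285 in the 3 Atf4AKO libraries. After cold exposure, Cd34 read 3523, 1261 and 2836 in Atf4WT and 2845, 1264 and 3740.2 in Atf4AKO iWAT. The highest cold-exposed library, Atf4AKO replicate 2, stayed below the lowest RT library, Atf4AKO replicate 1. On the log2 scale, Cd34 changed by -1.11 (SE 0.41, limma adjusted p = 0.0604) in Atf4WT and -1.08 (SE 0.41, adjusted p = 0.075) in Atf4AKO, and -1.09 over both (adjusted p = 0.0103). The call over both genotypes held in all 24 alternatives run for it, with -0.65 without both cold replicates 1. Within a genotype it was lost in Atf4WT with the lymphocyte score and without RT replicate 2 or cold replicate 1, and in Atf4AKO without RT replicate 0, RT replicate 2 or cold replicate 1.

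Pi16 varied most, over a 16.1-fold range. Pi16 (NM_023734, mm10 chr17:29317680-29330593, plus strand) read 7405, 9465 and 14214 normalized counts in the 3 Atf4WT libraries at RT and 10276, 4677 and 12756 in the 3 Atf4AKO libraries. After cold exposure, Pi16 read 8812, 881 and 5661 in Atf4WT and 3295, 1109.9 and 6712 in Atf4AKO iWAT. The 2 low cold libraries were at 12.2% and 22.2% of the mean of the other 2 libraries of their group, and Atf4WT cold replicate 0 was above 1 of the RT libraries of its genotype. Its log2 fold change was -1.50 (95% confidence interval -3.31 to 0.30) in Atf4WT and -1.55 (-3.35 to 0.26) in Atf4AKO, neither past the limma test (adjusted p = 0.185 and 0.188). Over both genotypes it was -1.52 (SE 0.58, limma adjusted p = 0.0518), a DEG call that was lost without both cold replicates 1 (-0.68, adjusted p = 0.127), without Atf4AKO cold replicate 1, without Atf4WT RT replicate 2, without Atf4AKO RT replicate 2, with the lymphocyte score as a covariate, and in edgeR. Between the genotypes, Pi16, the gene with the ATF4-type core in its promoter window, differed by -0.23 (limma adjusted p = 0.9999) at RT and by -0.28 (adjusted p = 0.925) after cold exposure. The intervals were -2.04 to 1.57 at RT and -2.09 to 1.52 after cold exposure. Progenitors that do not express adiponectin keep Atf4 in both genotypes, so control of Pi16 by ATF4 in these cells was not tested.

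Zfp423 encodes a zinc-finger factor that commits cells to the adipocyte lineage and is known to restrain the thermogenic programme in white adipocytes. Zfp423 (NM_033327, mm10 chr8:87661810-87959595, minus strand) read 1338, 1622 and 1222 normalized counts in the 3 Atf4WT libraries at RT and 1311, 1326 and 1038 in the 3 Atf4AKO libraries. After cold exposure, Zfp423 read 789.9, 671 and 664 in Atf4WT and 815, 1004 and 805 in Atf4AKO iWAT. All 6 cold-exposed libraries lay below all 6 RT libraries. In Atf4WT Zfp423 fell by 0.97 on the log2 scale (SE 0.14, limma adjusted p = 0.00072), a level 0.511 times that at RT, and this call held in all 25 alternatives run for it. In Atf4AKO the log2 fold change was -0.48 (SE 0.14, limma adjusted p = 0.027), a level 0.715 times that at RT, which is under the 1.5-fold limit. The Atf4AKO value passed this limit without both cold replicates 1 (-0.59, limma adjusted p = 0.0283), without Atf4AKO cold replicate 1 alone and without Atf4AKO RT replicate 2. Between Atf4AKO and Atf4WT its cold response differed by 0.49 (95% confidence interval 0.05 to 0.92, limma adjusted p = 0.612), which did not pass the correction over all genes, and by 0.35 without both cold replicates 1 (limma adjusted p = 0.999, and no unadjusted p under 0.05). Its call over both genotypes was lost with the lymphocyte score as a covariate. In contrast to the 6 genes that were low in both cold replicates 1, Zfp423 was at 92.3% and 124% of the mean of the other libraries of their group.

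Fbn1 encodes fibrillin-1, the backbone of extracellular microfibrils and the precursor of the hormone asprosin. Fbn1 (NM_007993, mm10 chr2:125300594-125507993, minus strand) read 4485, 4808 and 10205 normalized counts in the 3 Atf4WT libraries at RT and 6919.6, 3018 and 5743 in the 3 Atf4AKO libraries. After cold exposure, Fbn1 read 4076, 670.2 and 3200.0 in Atf4WT and 2603, 745 and 3770.3 in Atf4AKO iWAT. Atf4WT RT replicate 2 was the highest of all 12 libraries and the 2 low cold libraries were the lowest, at 18.4% and 23.4% of the others of their group. The log2 fold change was -1.55 (SE 0.72, limma adjusted p = 0.123) in Atf4WT and -1.34 (SE 0.72, adjusted p = 0.192) in Atf4AKO, and over both genotypes Fbn1 fell by 1.45 (adjusted p = 0.038), or by 0.70 without both cold replicates 1 (limma adjusted p = 0.0833). Acta2 encodes the smooth muscle actin of mural cells and myofibroblasts. Acta2 (NM_007392, mm10 chr19:34241090-34255590, minus strand) read 965, 1521 and 1284 normalized counts in the 3 Atf4WT libraries at RT and 1019, 1560.3 and 833 in the 3 Atf4AKO libraries. After cold exposure, Acta2 read 474, 785 and 1037 in Atf4WT and 1141, 888 and 1842 in Atf4AKO iWAT. All groups overlapped, and in cold-exposed iWAT Atf4WT replicate 2 was above Atf4AKO replicate 1. The log2 fold change with cold was -0.76 (SE 0.34, limma adjusted p = 0.108) in Atf4WT, a DEG call kept in 16 of 25 alternatives, and 0.16 (SE 0.34, adjusted p = 0.751) in Atf4AKO. The Acta2 call in Atf4WT was lost in edgeR, with the lymphocyte score, without both cold replicates 1 and without any 1 of Atf4WT RT replicates 1 and 2, Atf4WT cold replicates 0 and 1, Atf4AKO RT replicate 0 and Atf4AKO cold replicate 0.

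Loss of Atf4 in adipocytes left no difference past the test among the 9 genes at RT. None of the 9 was called by limma, by edgeR or by DESeq2, and none had an unadjusted p under 0.05, beside 0.463% of all genes called. The libraries of the genotypes overlapped for all 9 genes (6.30% of all tested genes did not overlap), and the log2 fold changes lay between -0.29 for Fbn1 and 0.15 for Pdgfrb. The precision differed widely, from an interval of -0.49 to 0.12 for Zfp423 to -2.04 to 1.57 for Pi16, so Pi16 and Fbn1 could differ by several-fold without being called.

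After cold exposure Acta2 was the 1 gene of 9 called between the genotypes, higher in Atf4AKO by 0.76 on the log2 scale (SE 0.34, limma adjusted p = 0.416). Of all tested genes 6.40% were called, and 0.358% were called higher. The Acta2 groups overlapped, with means of 765 ± 282 and 1290.0 ± 494 normalized counts (SD, n = 3), and the call held in 14 of 25 alternatives. It was lost with TMM or upper-quartile scaling, with the lymphocyte score as a covariate, in a fit of the 2 groups alone, and without any 1 of Atf4WT cold replicates 0 and 1, Atf4AKO cold replicates 0 and 2, Atf4WT RT replicates 1 and 2 or Atf4AKO RT replicate 0. Zfp423 was the gene whose cold-exposed groups did not overlap (16.5% of all tested genes), with every Atf4AKO library above every Atf4WT library and a log2 fold change of 0.30 (SE 0.14, limma adjusted p = 0.434). For the difference of the cold responses, none of the 9 genes was called by limma, edgeR or DESeq2 (1 had an unadjusted p under 0.05, Zfp423), beside 4.63% of all tested genes. Acta2 was called for it without both cold replicates 1 (1.22, limma adjusted p = 0.999). The genotype difference averaged over both temperatures gave no call in limma, edgeR or DESeq2 and no unadjusted p under 0.05, beside 3.35% of all genes.

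The 9 genes did not vary as 1 block. Deviations from the group means, over the 12 libraries, correlated with Pearson's r from 0.82 to 0.98 in the 15 pairs among Pdgfra, Dpp4, Ly6a, Cd34, Pi16 and Fbn1, a grouping made after their values were seen and given as a description. Against these 6 genes, the values were 0.02 to 0.37 for Pdgfrb, 0.02 to 0.18 for Acta2 and -0.33 to -0.25 for Zfp423. The points share libraries, so depth, scaling and tissue composition are common to both genes of a pair, and the 2 low cold libraries weigh heavily in them. In Atf4WT cold replicate 1 the 6 genes were each the lowest of their group, at 12.2% (Pi16) to 59.5% (Ly6a) of the mean of the other 2 libraries. In Atf4AKO cold replicate 1 they were at 22.2% (Pi16) to 50.8% (Ly6a). Acta2 (59.5%) and Pdgfrb (84.4%) were also lowest there, so 8 of the 9 genes were. In Atf4WT cold replicate 1, Acta2 was at 104%. Ucp1 was high in both libraries, at 73632 and 119558 normalized counts.

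Macrophage markers and general fibroblast genes moved with this pattern, while adipocyte, endothelial and mural markers did not. The mean log2 level of 9 macrophage markers, relative to its mean in Atf4WT RT iWAT, was -2.01 and -2.71 in the 2 low libraries, and between -0.49 and -0.01 in the other 4 cold-exposed libraries. General fibroblast genes were at -1.25 and -1.66 there, and between -0.60 and -0.46 in the other 4. Adipocyte markers read -0.18 and 0.12, endothelial markers -0.11 and -0.19, and mural markers -0.25 and -0.19 in the same libraries. Summed levels of the 9 macrophage markers ranged from 3448 to 21762 normalized counts in cold-exposed Atf4AKO and from 6205 to 18936 in cold-exposed Atf4WT iWAT. Over the RT libraries they ranged from 16199 to 33229.6. The part of tissue composition, of lymphocytes and of muscle in the differences of the 9 genes was not tested. The fits with a lymphocyte score cannot separate lymphocytes from cold exposure in Atf4WT. There the score was 7.53 to 9.89 after cold exposure and 3.96 to 7.47 at RT, so it rose along with that contrast. Cold-exposed Atf4AKO libraries scored 3.89 to 5.49, so the genotype contrast after cold exposure overlaps with the score too. With that score as a covariate, 1 gene (Zfp423) was called for cold in Atf4WT, 2 (Ly6a and Cd34) in Atf4AKO and 3 (Ly6a, Cd34 and Fbn1) over both genotypes.

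**Figure D3:**
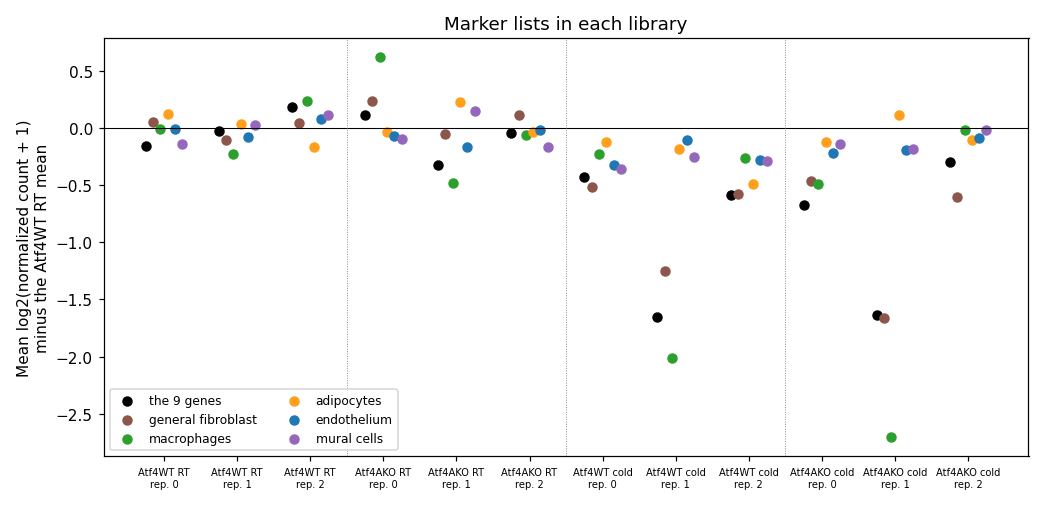
Mean log2(normalized count + 1) of the 9 genes and of 5 marker lists (colours), minus the mean of the same list in Atf4WT RT iWAT (y axis), in each of the 12 libraries (x axis). In replicate 1 of both cold-exposed groups the 9 genes (-1.66 and -1.64), fibroblast genes and macrophage markers lie far below 0, while adipocyte, endothelial and mural markers stay near the other libraries.

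Other genes of the same compartments, from lists made with earlier results of these data known, were set beside the 9. Of 13 further genes of interstitial (septal) progenitors, 5 were called over both genotypes, all lower, beside 10.6% of all tested genes called lower. All 13 had log2 fold changes below 0, with a median of -1.01 beside -0.01 over all tested genes. With both cold replicates 1 left out, 12 of the 13 were below 0, with a median of -0.31. In that fit 1 (Opcml) was called, beside 9.15% of all tested genes called lower, so most of the 5 calls rested on the 2 low libraries. Opcml, a GPI-anchored adhesion molecule, had the smallest p of these (-2.35, SE 0.70, limma adjusted p = 0.0184), with 5.28 to 122 normalized counts in the cold-exposed Atf4WT libraries against 175 to 211 at RT, and a value of -1.27 without both cold replicates 1. Limch1, a cytoskeletal gene, had the smallest p of the called genes in Atf4WT (-0.60, limma adjusted p = 0.0196), and Bmp7, a BMP ligand, was the called gene with the smallest p in Atf4AKO (-1.40, adjusted p = 0.118). The Limch1 call was lost without both cold replicates 1 (-0.48), while Bmp7 read -0.87 (limma adjusted p = 0.155) and kept its call in Atf4AKO. Of 9 committed preadipocyte genes, 4 were called lower over both genotypes and none higher, with a median of -0.43. Col15a1, a basement membrane collagen, fell from 13975 ± 2618 to 6397 ± 1517 normalized counts (SD, n = 3) in Atf4WT and from 13864 ± 3139.5 to 7738 ± 2029.7 in Atf4AKO (-0.99 over both, limma adjusted p = 0.000862). Dlk1, the preadipocyte factor Pref-1, was called in Atf4AKO with the smallest p (-2.14, limma adjusted p = 0.0108), at 8.27 ± 4.75 normalized counts (SD, n = 3) after cold exposure. Icam1, an adhesion molecule that leukocytes and endothelium also express, rose in cold-exposed Atf4WT (1.01, limma adjusted p = 0.0128) and was lower in Atf4AKO than in Atf4WT after cold exposure (-0.78, adjusted p = 0.211), where lymphocyte markers were lower too. Its cold responses differed by -0.86 between the genotypes (limma adjusted p = 0.645), and those of Fmo2, a monooxygenase, by 0.63 (adjusted p = 0.709). In the fit without both cold replicates 1, 5 of the 9 preadipocyte genes were called lower and 1, Icam1, higher over both genotypes, with a median of -0.62. The Icam1 calls between the genotypes were lost. Another gene of this list was called higher in Atf4AKO after cold exposure in that fit, beside 88 of the 13404 tested genes. For the difference of the cold responses 1 gene of the list was called higher, beside 84 of all tested genes.

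Among 13 regulators of adipocyte commitment, 2 were called lower and 1 higher over both genotypes, with a median of -0.13. Of the 13404 tested genes, 1421 were called lower and 1223 higher, so the regulator counts were near the background. Cebpb, an early adipogenic and cold-induced transcription factor, rose from 2236 ± 649 to 4209 ± 197 normalized counts (SD, n = 3) in Atf4WT and from 2996 ± 860.3 to 5073 ± 498 in Atf4AKO (0.87 over both, limma adjusted p = 0.000756). Zfp521, a zinc-finger factor known to oppose Zfp423, fell by 0.65 (limma adjusted p = 0.0285), so both factors were lower after cold exposure, and it had the smallest p of the regulators called lower in Atf4AKO (-0.69, adjusted p = 0.116). In Atf4WT this was Bmp4, a BMP ligand that favours commitment (-0.64, limma adjusted p = 0.101). Pparg and Cebpa, the core adipogenic factors, read -0.04 (limma adjusted p = 0.857) and 0.09 (adjusted p = 0.585). These 2 genes were picked after their values were seen. No regulator was called lower without both cold replicates 1, with Zfp521 at -0.32 over both genotypes and Bmp4 at -0.37 in Atf4WT. Of 13 mural cell genes, 2 were called lower over both genotypes and none higher, with a median of -0.13. This count, too, was near the background. Rgs5, a pericyte marker, fell from 6316 ± 674 to 2853 ± 465 normalized counts (SD, n = 3) in Atf4WT and from 5836 ± 1019 to 2717 ± 290.5 in Atf4AKO (-1.12 over both, limma adjusted p = 1.88e-05), with no overlap between RT and cold libraries. Cnn1, the calponin of smooth muscle, was higher in Atf4AKO than in Atf4WT after cold exposure (0.91, SE 0.40, limma adjusted p = 0.402), as Acta2 was, at 56.4 ± 20.4 against 28.9 ± 6.82 normalized counts (SD, n = 3), and by 0.74 over both temperatures (limma adjusted p = 0.557). Without both cold replicates 1 the Cnn1 difference after cold exposure was 1.00 (limma adjusted p = 0.767) and was no longer called. In that fit 1 of the 13 mural genes was called higher in Atf4AKO after cold exposure, beside 88 of the 13404 tested genes. For the difference of the cold responses 1 mural gene was called higher (84 of all tested genes), and 1 over both temperatures (42 of all tested genes). The same number of mural genes, 2, was called lower with cold over both genotypes.

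Of 14 tested genes of microfibrils and elastic fibres, 7 were called lower over both genotypes and none higher, with a median of -0.75. Fbln5 (fibulin-5, which assembles elastic fibres) fell from 1284 ± 82.5 to 644 ± 126 normalized counts (SD, n = 3) in Atf4WT and from 1101 ± 162 to 714 ± 177 in Atf4AKO (-0.83 over both, limma adjusted p = 0.000486). Emilin1 was the gene of this list with the smallest p in Atf4AKO (-0.99, adjusted p = 0.00597 in limma). Of 15 general fibroblast genes, 10 were called lower and none higher, with a median of -1.08. Col6a2, a chain of collagen VI, fell from 14267 ± 1463 to 4546 ± 1049.8 normalized counts (SD, n = 3) in Atf4WT and from 14414 ± 1837 to 4997 ± 1699 in Atf4AKO (-1.63 over both, limma adjusted p = 3.53e-05). Thy1, which T cells also express, was lower in Atf4AKO than in Atf4WT after cold exposure (-1.05, limma adjusted p = 0.274), and its cold responses differed by -1.21 (adjusted p = 0.692). These Thy1 values were -0.62 and -0.78 without both cold replicates 1. In the same fit 5 of 14 microfibril and elastic fibre genes were called lower over both genotypes, with a median of -0.33, and 8 of 15 general fibroblast genes, with a median of -0.74, beside 9.15% of all tested genes. These lists were not compared with each other, and each count stands beside the background of 10.6% called lower over both genotypes.

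**Figure D4:**
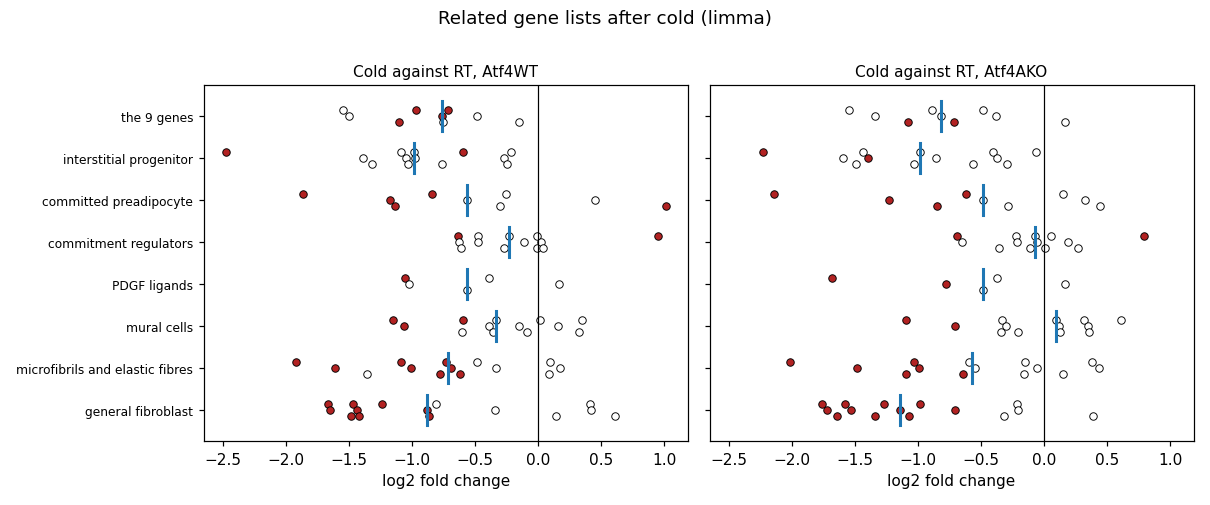
Log2 fold change with cold (x axis) of the 9 genes and of the tested genes of 7 related lists (y axis) in Atf4WT (left) and Atf4AKO iWAT (right), each point a gene, filled where it passed the DEG threshold, with the median of a list as a vertical bar. The medians in Atf4WT and Atf4AKO are -0.76 and -0.82 for the 9 genes, and -0.98 in both for interstitial progenitor genes. Those of fibroblast genes are -0.88 and -1.15, those of microfibril and elastic fibre genes -0.72 and -0.58. The medians of mural cell genes and regulators lie nearer to 0.

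The genes whose log2 levels followed each of the 9 most closely were found over the 12 libraries by Pearson's r, as a description. Pi16 was followed by Islr2 (0.994), Fndc1 (0.991) and Tmem100 (0.989), and Cd34 by Fstl1 (0.991), Adamtsl1 (0.988) and Tmem45a (0.988). Pdgfra was followed by Olfml2b (0.990), Ecm1 (0.987) and Arhgap10 (0.987), Fbn1 by Fn1 (0.988), Cadm3 (0.982) and Abca9 (0.982), Dpp4 by Pi15 (0.975), Dact1 (0.969) and Axl (0.969), and Ly6a by Man1c1 (0.981), Srpx (0.978) and Oas1a (0.977). Zfp423 was closest to Aph1b (0.982), Kifbp (0.978) and Gnpda2 (0.976). Acta2 was closest to the smooth muscle genes Myh11 (0.919) and Tagln (0.898) and to Sorbs2 (0.878), and Pdgfrb to 2310022B05Rik (0.905), Sec61a1 (0.883) and Cdc25b (0.883). The highest r of Acta2 and Pdgfrb was below that of the other 7 genes.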

How the data were processed

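Polyadenylated RNA of 12 mouse iWAT samples was sequenced (3 in each of 4 groups), with DNBSEQ strand-specific libraries per the labels. SOAPnuke (read filtering), STAR (mapping to mm10), featureCounts (unique reads) and pyDESeq2 (normalization) are the tools the authors named. The versions were not given in the sources used here. The deposited values are a normalized signal: the read count of a gene divided by the size factor of its library. Dividing by the value of 1 read gave whole reads for 100.0% of values (within 0.001 reads). Low values are thus limited by counting noise, and all 9 genes lay far above it.

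Groups were taken from the labels, and every deposited column was used. Log2(normalized count + 1) values were fitted in limma 3.58.1 (R 4.3.3, moderated with a mean-variance trend) for 13404 genes whose mean reached 10, with the 4 group means in 1 fit. The fold change is on the scale of log2(value + 1). Count tests on the recovered reads, edgeR 4.0.16 (quasi-likelihood) and DESeq2 1.42.0 (Wald), were alternatives, and called 2831 and 2851 DEGs for cold in Atf4WT, against 2846 by limma. The scripts were checked on data with known answers. The methods call the replicates independent and biological, without saying whether each was 1 mouse, and p-values measure the spread between these samples.

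The 9 genes and the related lists were chosen with earlier results of these data known. Named beside the 9 were, from each related list, the called gene with the smallest p in each direction and comparison, the 3 genes with the highest Pearson's r to each of the 9, and Atf4 and Ucp1 as checks. Other pseudocounts, filters, scalings, a replicate block, a lymphocyte score, array weights, and fits without each library were tried. The fit without both cold replicates 1 was chosen after seeing the data.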

Additional observations from a re-analysis of the deposited data

How the results depend on the processing

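The number of the 9 genes called for cold in Atf4WT (4) was 1 with the lymphocyte score as a covariate and 1 at an adjusted p under 0.05, 2 without both cold replicates 1 (a fit chosen after seeing the data), and 1 to 6 when single libraries were left out, with 2 without Atf4WT RT replicate 2 and 1 without Atf4WT cold replicate 1. In Atf4AKO (2) it was 1 at an adjusted p under 0.05, 2 without both cold replicates 1 (Cd34 and Zfp423 in place of Ly6a and Cd34), and 1 to 5 without single libraries: 1 without Atf4AKO RT replicate 0 or Atf4AKO cold replicate 1, and 5 without Atf4WT cold replicate 1 or Atf4AKO cold replicate 2. Over both genotypes (6) it was 3 with the lymphocyte score, 3 without both cold replicates 1, and 3 to 6 without single libraries, the lowest without Atf4AKO cold replicate 1. The genotype call after cold exposure (1, Acta2) was 0 with upper-quartile scaling, TMM scaling, the lymphocyte score, a fit of the groups compared alone, and an adjusted p under 0.05, and 0 to 1 without single libraries. For the difference of the cold responses (0), 1 gene was called with the lymphocyte score (Pdgfrb), 1 without both cold replicates 1 (Acta2), and 0 to 1 without single libraries (Acta2, without Atf4AKO RT replicate 1, Atf4WT cold replicate 2 or Atf4AKO cold replicate 1). The cause of these shifts was not tested. At RT and for the averaged genotype difference the count was 0 in all alternatives run.

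With the replicate number as a replicate block, 7 genes were called for cold in Atf4WT, 6 in Atf4AKO and 7 over both genotypes, and no count between the genotypes changed. Same-numbered libraries correlated with r from -0.19 to 0.39 after removing group means, over 0.1 in 9 of 18 pairs. The pairs numbered 1 were all positive (0.18 to 0.39). Those numbered 0 ran from -0.18 to 0.10, and those numbered 2 from -0.19 to 0.37. What the libraries numbered 1 share was not tested. In all, 6 of 12 libraries were closest to their own number, so the numbers were not used as a pairing. With 3 libraries a group, the spread of Pi16 and Fbn1 between replicates left wide intervals, and their level lay far above the value of 1 read.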
